A study of Mus musculus with 23 samples.

Results

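The genes described here are 10 that mark fat cells or that fat cells secrete: Adipoq, Lep, Retn, Cfd, Rbp4, Nrg4, Pparg, Fabp4, Car3 and Agpat2. They were taken by symbol from 2 tables of raw RNA-seq counts, and all 10 were found in both, among 12831 genes for quadriceps muscle and 16962 for epididymal fat. The mice were male C57BL/6J animals of 8 weeks, none of them edited. The no tumor group had sham surgery, the KPC group received tumor cells in the pancreas from a line that began in the pancreatic tumor of a KPC mouse, whose tumor alleles are switched on by Pdx1-Cre, and the KPC IL6KO group received cells of the same line in which Il6 had been disrupted. Each tumor group rests on 1 clone, since the KPC cells had been given a null guide with the editing plasmid and the KPC IL6KO cells were 1 edited clone, and all mice were killed when the KPC group had wasted. The tumor cells were not sequenced here, so these libraries give no check of the edit. Quadriceps was taken from 3 mice without tumor and 4 in either tumor group, and fat from 4 mice in each of the groups, numbered apart from the muscle mice. Muscle and fat were extracted and sequenced separately. Library totals ran from 19259763 to 74907810 counts in quadriceps and from 26306377 to 56308545 in fat, and every gene of the 10 had more than 3 counts in every library.

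White fat cells store triglyceride and report their size and state to other organs through secreted proteins, the adipokines. Leptin (Lep) is made in proportion to stored fat and lowers food intake, adiponectin (Adipoq) improves insulin sensitivity, resistin (Retn) opposes insulin in the mouse, adipsin (Cfd) is complement factor D, retinol binding protein 4 (Rbp4) carries vitamin A in blood, and neuregulin 4 (Nrg4) signals to the liver. PPARγ (Pparg) is the nuclear receptor on which fat cell differentiation depends, and it acts with RXR and with C/EBP factors. Fabp4 carries fatty acids inside the cell, Agpat2 makes phosphatidic acid on the route to triglyceride, and Car3 is a carbonic anhydrase that is abundant in fat cells and also in muscle fibers. Quadriceps contains fat cells between its fibers, so these genes can be read there too. Not all of their RNA in muscle need come from fat cells, since fibers hold Car3 as well. In pieces of whole tissue, fewer fat cells and less RNA per fat cell cannot be told apart.

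The promoters of Lep, Rbp4 and Adipoq are shown because Lep had the lowest fitted KPC value of the 10 in both tissues, Rbp4 the next lowest in fat, and Adipoq served as the reference for ratios. Each line gives the 250 bases before a RefSeq start site (GRCm38.p6, from 5′ to 3′ along the gene), and capitals mark the letters TTNCNNAA (C/EBP), TATAA or CCAAT on either strand. Overlapping matches run together. Rbp4 has a further RefSeq start site upstream, which is not shown.
Lep, chr6:29059971-29060220, plus strand: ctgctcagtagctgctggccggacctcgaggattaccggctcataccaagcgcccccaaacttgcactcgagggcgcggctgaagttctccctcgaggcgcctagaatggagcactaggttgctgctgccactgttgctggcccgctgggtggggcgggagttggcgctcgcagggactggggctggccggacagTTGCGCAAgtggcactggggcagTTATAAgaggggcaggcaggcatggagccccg
Adipoq, chr16:23146286-23146535, plus strand: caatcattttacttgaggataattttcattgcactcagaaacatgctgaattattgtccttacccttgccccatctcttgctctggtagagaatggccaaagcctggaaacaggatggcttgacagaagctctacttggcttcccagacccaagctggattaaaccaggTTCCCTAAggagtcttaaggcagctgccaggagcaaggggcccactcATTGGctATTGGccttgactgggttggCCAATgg
Rbp4, chr19:38124812-38125061, minus strand: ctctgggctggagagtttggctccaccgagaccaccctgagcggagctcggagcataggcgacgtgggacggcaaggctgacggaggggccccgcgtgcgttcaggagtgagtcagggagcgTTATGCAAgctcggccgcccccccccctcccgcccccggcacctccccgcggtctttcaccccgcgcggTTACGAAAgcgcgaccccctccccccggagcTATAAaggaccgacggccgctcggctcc
Of the 10 genes, 8 had a RefSeq promoter entry. These 8 have 11 promoters. TTNCNNAA was found in 6 of the 11 (of Adipoq, Lep, Rbp4, Pparg and Nrg4) and in 36.8% of all 32851 promoters of this length. TATAA was found in 3 of the 11 (of Lep, Rbp4 and Pparg) and in 22.8% of all promoters, and CCAAT in 4 of the 11 (of Adipoq, Rbp4 and Pparg) and in 33.8%. In Lep the palindrome TTGCGCAA lay 55 to 48 bases before the start site, and TATAA 31 to 27 bases before it. Neither a pair of AGGNCA 1 base apart, the repeat read by PPARγ with RXR, nor GNACA followed after 3 bases by TGTNC, the glucocorticoid receptor palindrome, was found in any of them, and these occur in 0.338% and 0.387% of all promoters. A match is only a run of letters and says nothing of binding.

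The 10 genes lie apart in the genome (whole gene bodies, GENCODE M21, GRCm38). Adipoq lies at chr16:23146536-23158028, Lep at chr6:29060220-29073877, Retn at chr8:3655770-3660110, Cfd at chr10:79890853-79892655, Rbp4 at chr19:38116629-38125281 and Nrg4 at chr9:55220222-55326844. Pparg lies at chr6:115360951-115490399, Fabp4 at chr3:10204088-10208576, Car3 at chr3:14863512-14872523 and Agpat2 at chr2:26593057-26604417. Rbp4, Nrg4, Fabp4 and Agpat2 are on the minus strand and the others on the plus strand.

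Fabp4, Car3 and Cfd were the most abundant of the 10 genes in both tissues without tumor. Values are CPM (counts scaled to a common library size), corrected for library composition. Levels of the 10 genes are compared with each other only per kilobase of the longest coding transcript (GENCODE M21). In fat of no tumor mice the median level was 2653 CPM per kilobase for Fabp4, 2625 for Car3, 2518 for Cfd and 556 for Adipoq, and it was 226 for Retn, 74.9 for Agpat2, 59.2 for Lep, 58.9 for Rbp4, 31.1 for Pparg and 11.9 for Nrg4. The 3 leading genes did not differ beyond their spread, which ran from 564 to 11753 for Car3 alone, and neither did Agpat2, Lep and Rbp4. In quadriceps of no tumor mice Car3 led with a median of 783 CPM per kilobase, followed by Cfd at 481, Fabp4 at 358 and Adipoq at 54.4, while Lep stood at 2.74 and Nrg4 at 2.25. On this scale the median of Adipoq in no tumor fat was 556 against 54.4 in muscle, and that of Lep was 59.2 against 2.74. The 2 tables were normalized separately, and the paper describes different library preparations for the tissues. These 2 pairs are therefore set side by side without a test.

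Fat cell RNA varied widely between muscles of the same group. A panel of 5 genes known as fat cell markers (Adipoq, Plin1, Cidec, Adig, Lgals12) summed to 209, 639 and 113 CPM in the 3 no tumor muscles, to 169.8, 361, 37 and 14.8 CPM in the 4 KPC muscles, and to 111, 21.8, 73.7 and 56.0 CPM in the 4 KPC IL6KO muscles. No tumor replicate 2 was the richest in fat cell RNA and KPC replicate 4 the poorest. In KPC replicate 4 most of the panel was Adig, at 11.9 CPM, with Plin1 at 0.433 CPM, so the sum there tracks Adig rather than Adipoq. Muscle itself was plain in all 11 libraries, with the 8 skeletal muscle markers summing to between 165819 and 236107 CPM. None of the 10 epididymis markers had a row in the quadriceps table.

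The secreted products are taken first in muscle, starting with adiponectin, and the cell-bound proteins after them.

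**Figure D1:**
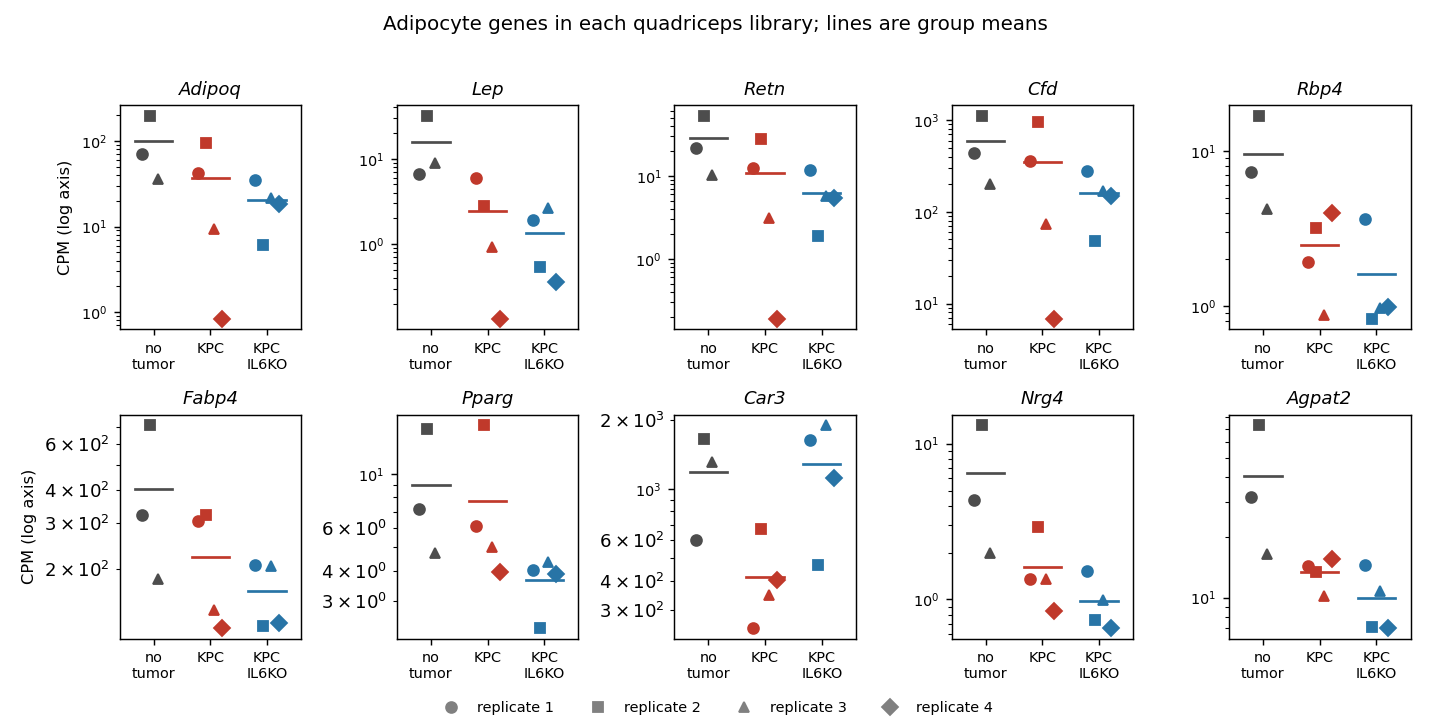
CPM (log axes) of the 10 genes in each quadriceps library (3 mice without tumor and 4 in either tumor group), with 1 point per mouse and a line at each group mean. No tumor replicate 2 holds the highest Lep (32.0 CPM), and KPC replicate 4 the lowest Adipoq (0.828 CPM), Retn and Cfd.

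Adipoq was read at 70.3, 197 and 35.8 CPM in the no tumor muscles, at 42.8, 94.0, 9.43 and 0.828 CPM in the KPC muscles, and at 35.3, 6.05, 21.6 and 18.3 CPM in the KPC IL6KO muscles. The KPC values overlapped the no tumor range and the KPC IL6KO values did not. The fitted difference from no tumor was −1.46 ± 1.04 (log2, SE) for KPC, with an edgeR quasi-likelihood FDR of 0.231, and −2.32 ± 1.06 for KPC IL6KO, with an FDR of 0.726. Neither passed the test, which asked for an FDR of at most 0.05 and a fold change (FC) of at least 1.5.

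Lep separated the groups more clearly. It stood at 6.58, 32.0 and 8.91 CPM without tumor, at 5.88, 2.79, 0.916 and 0.132 CPM in KPC, and at 1.89, 0.544, 2.64 and 0.360 CPM in KPC IL6KO. All 8 tumor-bearing muscles lay below all 3 no tumor muscles. In KPC, Lep fell by 2.70 ± 0.95 on the log2 scale, 6.50-fold (edgeR FDR = 0.0245). The KPC IL6KO difference was larger, −3.54 ± 0.99, but its FDR was 0.354, and no gene of the 12831 passed in that comparison.

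Retn and Cfd followed Adipoq. Retn was at 21.5, 52.8 and 10.2 CPM, then 12.4, 28.0, 3.08 and 0.188 CPM in KPC and 11.7, 1.89, 5.66 and 5.33 CPM in KPC IL6KO. Cfd was at 443, 1120.4 and 202 CPM, then 358, 959, 74.2 and 6.76 CPM in KPC and 282, 48.6, 170.4 and 148 CPM in KPC IL6KO. Both overlapped between the groups, with KPC differences of −1.37 ± 1.02 (FDR = 0.247) for Retn and −0.75 ± 1.10 (FDR = 0.557) for Cfd in the edgeR fit.

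Rbp4 and Nrg4, both low in muscle, passed the test in KPC against no tumor. Rbp4 was at 7.34, 16.9 and 4.25 CPM without tumor, at 1.93, 3.18, 0.884 and 3.97 CPM in KPC, and at 3.62, 0.824, 0.975 and 0.995 CPM in KPC IL6KO, so that again no tumor-bearing muscle reached the no tumor range. In KPC, Rbp4 fell by 1.95 ± 0.62 on the log2 scale, 3.85-fold (edgeR FDR = 0.0156). Its KPC IL6KO difference was larger, −2.59 ± 0.64, and was not called (edgeR FDR = 0.289). Nrg4 was at 4.33, 13.2 and 2.00 CPM, then 1.36, 2.93, 1.36 and 0.847 CPM in KPC and 1.52, 0.736, 0.991 and 0.652 CPM in KPC IL6KO. Only KPC replicate 2 reached into the no tumor range. In KPC, Nrg4 fell by 2.02 ± 0.57 (log2), 4.05-fold (edgeR FDR = 0.00780). For KPC IL6KO the Nrg4 difference was −2.76 ± 0.59, again larger and not called (edgeR FDR = 0.228).

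Among the cell-bound proteins, Agpat2 and Car3 fell in KPC muscle. Agpat2 was at 32.1, 73.3 and 16.5 CPM without tumor, at 14.4, 13.4, 10.2 and 15.5 CPM in KPC, and at 14.6, 7.12, 10.8 and 7.00 CPM in KPC IL6KO, with no overlap between tumor-bearing and no tumor muscles. In KPC, Agpat2 fell by 1.61 ± 0.41 (log2), 3.04-fold (edgeR FDR = 0.00448), the smallest FDR of the 10 genes. For KPC IL6KO the Agpat2 difference was −2.04 ± 0.41, larger but not called (edgeR FDR = 0.228). Car3 was at 604, 1655 and 1315 CPM, then 248, 669, 346 and 405 CPM in KPC, and 1627, 470.2, 1897 and 1121 CPM in KPC IL6KO. In KPC, Car3 fell by 1.51 ± 0.47 (log2), 2.86-fold (edgeR FDR = 0.0126), with KPC replicate 2 inside the no tumor range, and its KPC IL6KO difference was 0.10 ± 0.47.

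Pparg and Fabp4 did not pass the quasi-likelihood test in any comparison. Pparg was at 7.15, 15.2 and 4.71 CPM, then 6.13, 15.9, 5.02 and 3.95 CPM in KPC and 4.04, 2.31, 4.36 and 3.89 CPM in KPC IL6KO, where all 4 muscles lay below the no tumor range. Fabp4, which capillary endothelium also uses, was at 321, 711 and 182 CPM, then 305, 322, 139.5 and 118 CPM in KPC and 207, 121, 206 and 124 CPM in KPC IL6KO. In KPC replicate 4, where Adipoq had almost gone, Pparg still stood at 3.95 CPM, Fabp4 at 118 CPM, Agpat2 at 15.5 CPM and Rbp4 at 3.97 CPM. Adipoq had 44 counts in that library and Lep 7. The KPC differences were −0.23 ± 0.49 for Pparg (FDR = 0.683) and −0.87 ± 0.46 for Fabp4 (FDR = 0.111) by edgeR.

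**Figure D2:**
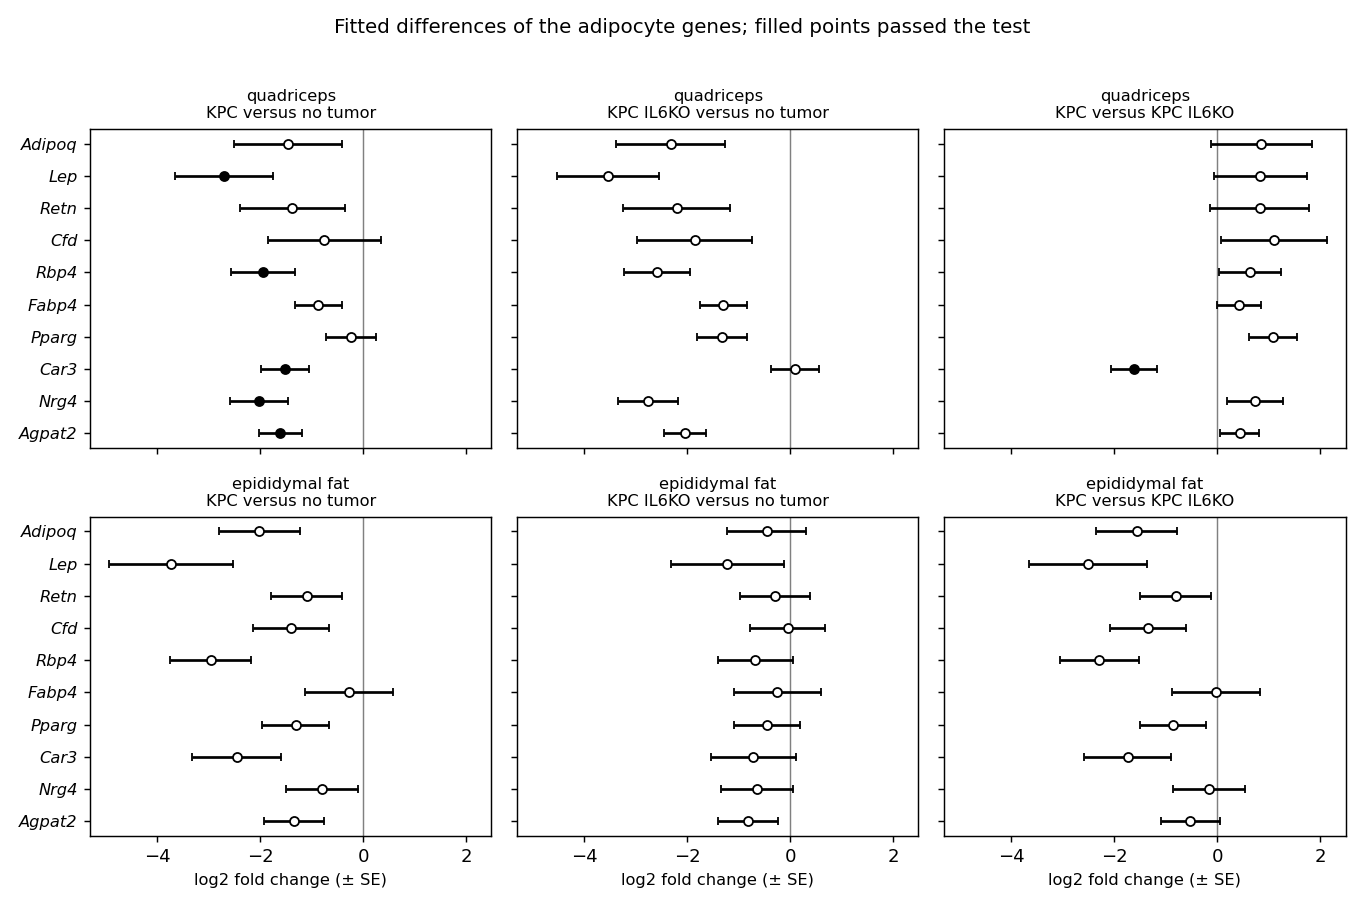
Fitted log2 fold change with its SE (x axis) of each gene (y axis) in 3 comparisons of quadriceps (top) and epididymal fat (bottom). Filled points passed the test: 5 genes in quadriceps of KPC against no tumor mice and Car3 in KPC against KPC IL6KO, and none in fat.

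In KPC against no tumor muscle, then, 5 of the 10 genes fell (Lep, Rbp4, Car3, Nrg4, Agpat2) and none rose. Among all 12831 genes 29.0% were called lower and 26.7% higher in this comparison, so a call alone does not set these genes apart. All 10 fitted values were negative, with a median of −1.49 against −0.03 over all genes. The 5 calls leaned on no tumor replicate 2: without it Agpat2 alone passed (−0.87 log2, edgeR FDR = 0.0407), with Lep at −1.66 (FDR = 0.174), Rbp4 at −1.23 (FDR = 0.121), Car3 at −1.20 (FDR = 0.0619) and Nrg4 at −0.99 (FDR = 0.107). Lep was also lost without KPC replicate 3 (FDR = 0.0582).

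KPC IL6KO against no tumor muscle gave 0 calls among the 10, and 0% of all genes were called, although 6 of the 10 and 887 of 12831 genes had an unadjusted p under 0.05. Here 9 of the 10 fitted values were negative, with a median of −2.13 against 0.00 over all genes, and Car3 was the exception. The call depended on the tool. The likelihood ratio test of edgeR called 95 genes with 4 of these among them (Lep, Rbp4, Nrg4, Agpat2), and DESeq2 called 96 with 3 (Rbp4, Nrg4, Agpat2). KPC and KPC IL6KO were set against the same 3 no tumor muscles, so their differences are not independent.

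KPC against KPC IL6KO muscle compares both kinds of tumor directly. Car3 differed by −1.62 ± 0.44 (log2, KPC minus KPC IL6KO), 3.07-fold (edgeR FDR = 0.00666), with KPC replicate 2 and KPC IL6KO replicate 2 crossing over. The other 9 had positive fitted values, from 0.43 ± 0.43 for Fabp4 to 1.11 ± 1.04 for Cfd, and none passed. Pparg came nearest, at 1.09 ± 0.46 with an FDR of 0.0529, and passed under DESeq2 (FDR = 0.0166). One gene lower and none higher stands against 27.3% of all genes called lower and 26.4% called higher.

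Marker RNA of other cell types differed between groups in the same muscles. Calls here stand against 29.0% of all genes called lower and 26.7% called higher in KPC against no tumor muscle. The 7 stromal and preadipocyte markers summed to 931 to 1039.8 CPM without tumor, to 160.0 to 265 CPM in KPC and to 529 to 805 CPM in KPC IL6KO, and all 7 were called lower in KPC than in no tumor muscle. Of these, Dcn, a matrix proteoglycan, stood at 171 ± 34.8 CPM in KPC against 278 ± 16.7 CPM without tumor (mean ± SD), and Col3a1, a fibrillar collagen, at 8.63 ± 4.41 against 408 ± 32.5 CPM. All 4 neutrophil markers present were called higher in KPC, and their sum did not exceed 21.8 CPM. Among the endothelial markers 2 of 5 were called lower (Kdr, Tek). The part of these shifts in the 10 genes was not tested.

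Genes of the same pathway were described from lists. Counts of called genes in them stand against 26.7% of all genes called higher and 29.0% called lower in KPC against no tumor muscle. Of 16 regulators of fat cell formation, 4 rose (Cebpb, Cebpd, Klf15, Stat5b) and 7 fell (Cebpa, Srebf1, Ebf1, Ebf2, Zfp467, Ppargc1b, Prdm16) in KPC against no tumor muscle. Klf15, a factor induced by glucocorticoids, rose from 70.0 ± 6.76 to 345 ± 95.1 CPM, and Ppargc1b, a coactivator of mitochondrial genes, fell from 13.6 ± 1.93 to 1.87 ± 0.97 CPM. Cebpa, which sustains Pparg in mature fat cells, was at 31.1, 95.5 and 19.3 CPM without tumor. It was at 10.8, 15.1, 5.24 and 3.20 CPM in KPC and at 12.5, 5.22, 10.9 and 8.87 CPM in KPC IL6KO. Neither tumor group overlapped no tumor, and the KPC IL6KO difference was −2.38 ± 0.58 (log2, edgeR FDR = 0.289). Cebpd, a C/EBP factor of acute responses that was picked out after its values were seen, was at 29.1, 19.7 and 44.2 CPM without tumor, 654, 386, 316 and 513 CPM in KPC, and 15.7, 9.92, 34.0 and 43.8 CPM in KPC IL6KO. None of the 16 passed in KPC IL6KO against no tumor.

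Of 26 lipid storage genes measured in muscle, 3 rose in KPC against no tumor and 11 fell. Over all genes 26.7% were called higher and 29.0% lower. The 3 that rose, Plin4, Pnpla2 and Cd36, are a lipid droplet coat protein, the main triglyceride lipase and a fatty acid transporter, all of which muscle fibers use as well. Plin4 went from 478 ± 103 to 1980 ± 423 CPM and Pnpla2 from 381 ± 96.9 to 1685 ± 362 CPM. Among those that fell, Gpd1, which makes the glycerol backbone of triglyceride, went from 1089.9 ± 44.8 to 192 ± 73.8 CPM. Against KPC IL6KO, 6 of the 26 were higher in KPC and 2 were lower, and the median was 0.28 (log2). Over all genes 26.4% were called higher and 27.3% lower there.

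Of 12 other secreted factors measured in muscle, 4 rose (Nampt, Agt and Lcn2 among them) and 7 fell (Rarres2, Apln, Metrnl, Nucb2, C1qtnf2, C1qtnf9, Sfrp5) in KPC against no tumor. For this and the next 2 lists the shares over all genes were again 26.7% higher and 29.0% lower. Nampt, the enzyme that starts NAD salvage, rose from 121 ± 4.53 to 214 ± 12.4 CPM. Of 8 receptors and partners, Rxrb rose and Cdh13, a binding partner of adiponectin, fell from 73.7 ± 3.83 to 26.4 ± 5.84 CPM. The adiponectin receptor Adipor1 was at 453 ± 51.2 against 328 ± 26.9 CPM and did not reach the fold required. Of 17 close relatives of the 10 genes, 4 rose and 7 fell: Retnlg, a resistin relative of neutrophils, rose to 1.58 ± 0.61 CPM from 0.0535 ± 0.0619, and Car8 fell to 1.66 ± 0.59 from 5.94 ± 0.96 CPM. In the fat cell panel, Lgals12 alone was called (0.938 ± 1.05 against 15.6 ± 13.4 CPM). Plin1 was at 14.6 ± 16.9 against 79.2 ± 74.3 CPM (FDR = 0.0550), Cidec at 79.6 ± 92.4 against 112 ± 99.3 CPM, and Adig at 13.7 ± 7.13 against 12.2 ± 8.41 CPM, all by edgeR.

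In epididymal fat, no gene of the 10 passed in any comparison, and 0% of the 16962 genes were called in each of the 3. The spread between mice was the larger here, with a biological coefficient of variation of 63.5% against 22.7% in quadriceps.

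**Figure D3:**
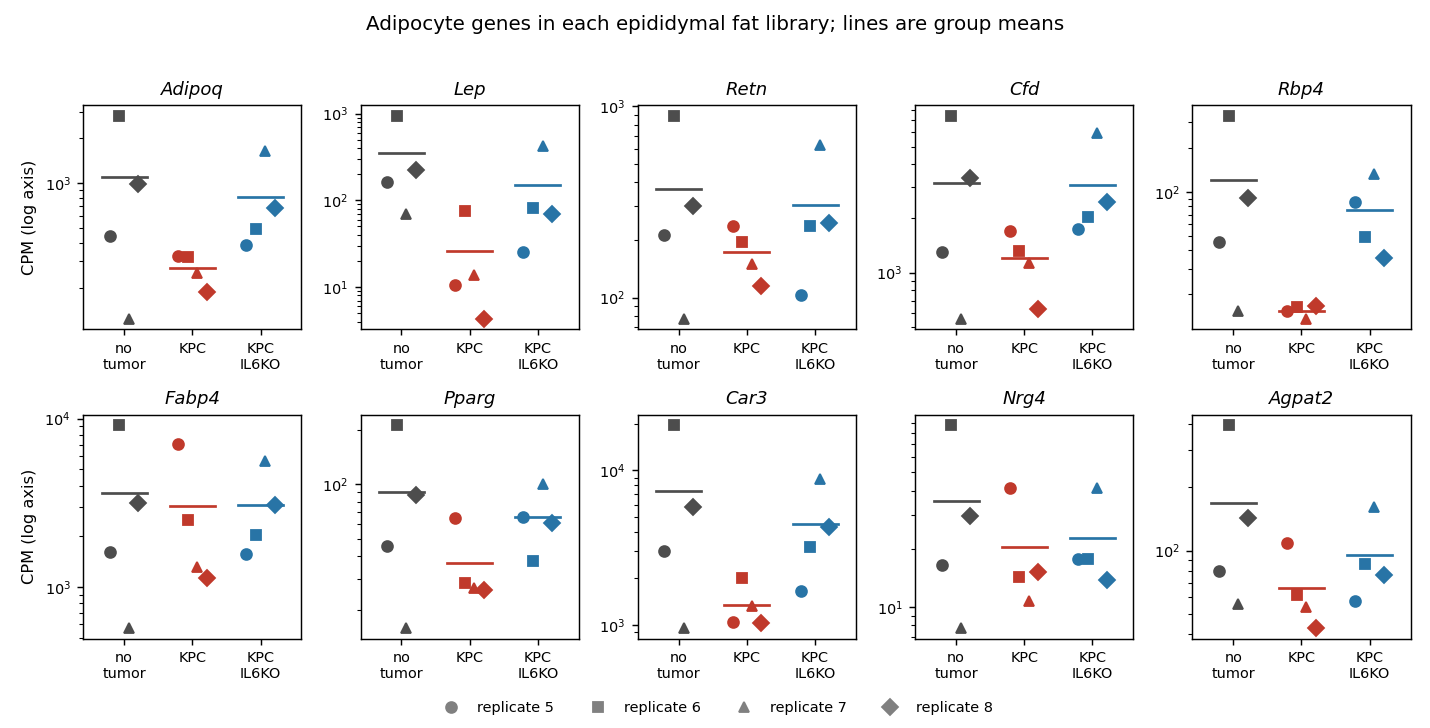
CPM (log axes) of the 10 genes in each epididymal fat library (n = 4 mice a group), with 1 point per mouse and a line at each group mean. No tumor replicates 6 and 7 mark the ends of nearly every no tumor range, from 123 to 2829.8 CPM for Adipoq, whose KPC points lie between 189 and 324 CPM.

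Adipoq was at 446, 2829.8, 123 and 991 CPM in the 4 no tumor pads, at 324, 323, 251 and 189 CPM in KPC, and at 387, 492, 1649 and 682 CPM in KPC IL6KO. The KPC pads lay inside the no tumor range and below every KPC IL6KO pad. The fitted difference from no tumor was −2.02 ± 0.80 (log2, edgeR FDR = 0.357), and from KPC IL6KO −1.56 ± 0.78 (FDR = 0.842).

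Lep showed the lowest fitted value in fat. It was at 162, 948, 70.2 and 224 CPM without tumor, at 10.7, 76.1, 13.8 and 4.26 CPM in KPC, and at 25.3, 82.4, 423 and 69.7 CPM in KPC IL6KO. In KPC, 3 of the 4 pads lay below every other pad, and replicate 6 just entered the no tumor range. The difference was −3.74 ± 1.21 (log2), 13.4-fold lower (edgeR FDR = 0.284), and it passed under the likelihood ratio test (FDR = 0.0396) and DESeq2 (FDR = 0.0112).

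Rbp4 was nearly the same in all KPC pads, at 15.4, 16.4, 13.5 and 16.6 CPM. It was at 45.9, 331, 15.4 and 90.9 CPM in no tumor pads and at 85.8, 49.5, 132 and 35.6 CPM in KPC IL6KO pads, so that KPC lay below all of KPC IL6KO and overlapped no tumor replicate 7. The difference from no tumor was −2.96 ± 0.79 (edgeR FDR = 0.234), past the threshold under the likelihood ratio test (FDR = 0.0117) and DESeq2 (FDR = 0.00389), and that from KPC IL6KO was −2.29 ± 0.77 (FDR = 0.670).

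Car3 was at 3022, 19733, 946 and 5793 CPM, then 1038, 1995, 1322 and 1026 CPM in KPC and 1648, 3169, 8832 and 4324 CPM in KPC IL6KO. The groups overlapped, with a KPC difference of −2.45 ± 0.86 (edgeR FDR = 0.311), called by DESeq2 (FDR = 0.0343). Fabp4 behaved otherwise: it was at 1618, 9161, 567 and 3136 CPM, then 7074, 2509.8, 1315 and 1124 CPM in KPC and 1561, 2030.3, 5564 and 3066 CPM in KPC IL6KO, a KPC difference of −0.27 ± 0.85 (FDR = 0.918). KPC replicate 5 was second only to no tumor replicate 6 in Fabp4.

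The other 5 genes ranged in no tumor fat from 77.1 to 895 CPM (Retn), 552 to 7433 (Cfd), 15.9 to 213 (Pparg), 7.72 to 88.0 (Nrg4) and 55.7 to 396 (Agpat2). In KPC fat they ranged from 115 to 236 CPM (Retn), 629.7 to 1714 (Cfd), 26 to 64.8 (Pparg), 10.7 to 41.4 (Nrg4) and 42.6 to 109 (Agpat2). Their KPC differences lay between −0.80 ± 0.70 for Nrg4 and −1.39 ± 0.74 for Cfd. All 10 KPC values were negative (median −1.37, all genes −0.10), and 5 of the 10 had an unadjusted p under 0.05, as did 12.2% of all genes. In KPC IL6KO against no tumor fat the 10 values ran from −1.22 ± 1.10 for Lep to −0.05 ± 0.73 for Cfd. There 0 of the 10 had an unadjusted edgeR p under 0.05, against 9.34% of all genes. In KPC against KPC IL6KO fat the values ran from −2.52 ± 1.14 for Lep to −0.02 ± 0.85 for Fabp4. There 2 of the 10 had such a p, against 6.26% of all genes. The likelihood ratio test called 413, 209 and 66 genes in the 3 comparisons and DESeq2 585, 286 and 125.

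The fat pads differed in RNA of the epididymis, the duct they lie on. Gpx5, a glutathione peroxidase of the epididymal epithelium, stood at 39292 and 34256 CPM in no tumor replicates 5 and 7 and at 52.2 and 4.81 CPM in replicates 6 and 8. It was between 21347 and 40388 CPM in all 4 KPC pads. In KPC IL6KO it was at 54957 CPM in replicate 6 and between 4.69 and 85.8 CPM in the other 3. Another epididymal gene, Crisp1, did not follow the same split, at 1305, 12023, 5754 and 14517 CPM without tumor and 156 to 5328 CPM in KPC. The 10 epididymis markers summed to 13504 to 98606 CPM without tumor, 40796 to 68419 CPM in KPC and 749 to 97106 CPM in KPC IL6KO. The fat cell panel summed to 1025 and 340.2 CPM in the no tumor pads high in Gpx5, to 7607 and 2451 CPM in those low in it, and to 510.1 to 1263 CPM in KPC.

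**Figure D4:**
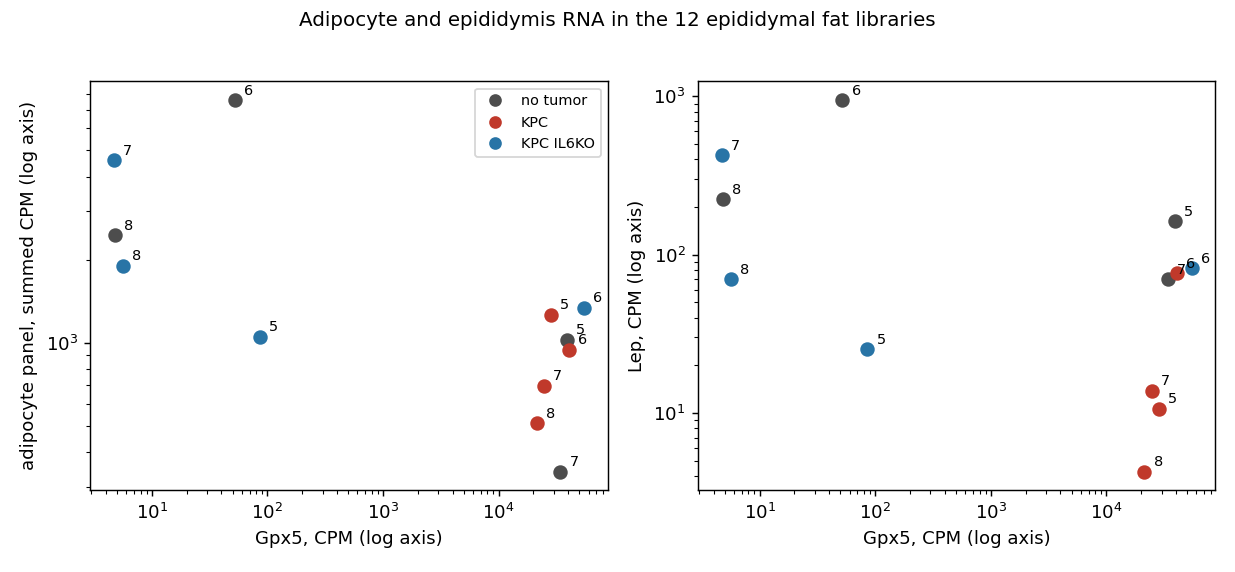
Gpx5 (x axis, CPM, log) against the fat cell panel (left, summed CPM, log) and Lep (right, CPM, log) in the 12 epididymal fat libraries, with 1 numbered point per mouse. All 4 KPC pads lie between 21347 and 40388 CPM of Gpx5, near no tumor replicates 5 and 7, and in Lep 3 of them lie below both, with KPC replicate 6 (76.1 CPM) between them.

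Restricting the comparison to pads high in Gpx5, a step added after the data were seen, left 4 KPC pads against 2 no tumor pads. There Adipoq differed by 0.05 (log2), against −2.02 over all pads. Cfd was at 0.49, Retn at 0.37 and Fabp4 at 1.56, so their signs turned. Lep remained at −2.05 (edgeR FDR = 0.310), Rbp4 at −0.87 (FDR = 0.230) and Car3 at −0.44 (FDR = 0.685). With a term for Gpx5 class over all 12 pads, the KPC values were −2.47 for Lep, −1.54 for Rbp4 and −0.57 for Adipoq, none passing. Over the whole table both of these fits did call genes, and the counts are given with the other settings below. A KPC value at low Gpx5 cannot be given, since none of the 4 was low in Gpx5.

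Other tissue was present as well. The 8 skeletal muscle markers summed to 3016 CPM in KPC IL6KO fat replicate 8 and to at most 485 CPM in the other 11 pads. The 7 macrophage markers summed to 251 to 984 CPM without tumor, to 1133 to 1616 CPM in KPC and to 419 to 2796 CPM in KPC IL6KO, and the 5 neutrophil markers present to 2.79 to 6.37, 21.9 to 52.5 and 4.32 to 62.8 CPM. The members with the highest mean CPM over all pads, not scaled for length, Lyz2 and Csf3r, were at 602 ± 114 against 242 ± 161 CPM and at 10.4 ± 1.18 against 2.91 ± 1.02 CPM in KPC and no tumor fat. Their part in the values of the 10 genes was not tested. None of the 26 lipid storage genes, 16 regulators, 14 other secreted factors, 10 receptors and partners or 20 relatives measured in fat passed in any comparison. Their KPC against no tumor medians were −1.5, −0.36, 0.04, 0.18 and −0.36 (log2). The lipid storage gene Scd1, a fatty acid desaturase, was at 3576 ± 5126 CPM in KPC against 9827 ± 12647 without tumor, and the one with the smallest p, Aoc3, an amine oxidase of the fat cell surface, at 34.5 ± 8.79 against 532 ± 627 CPM (edgeR FDR = 0.199). Lcn2, of the other secreted factors, was at 5112 and 3355 CPM in the no tumor pads high in Gpx5 and at 63.1 and 79.3 CPM in those low in it.

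Because fat cell RNA varied so much, each gene was also expressed per 100 counts of Adipoq in the same library. These ratios were compared over mice by a 2-sided exact permutation test, which cannot go below 0.0286 with 4 mice against 4 or 0.0571 with 3 against 4. Of 54 comparisons none reached 0.05 after adjustment over the 27 of its tissue (smallest adjusted p by exact permutation, 0.154 in fat and 0.309 in quadriceps).

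**Figure D5:**
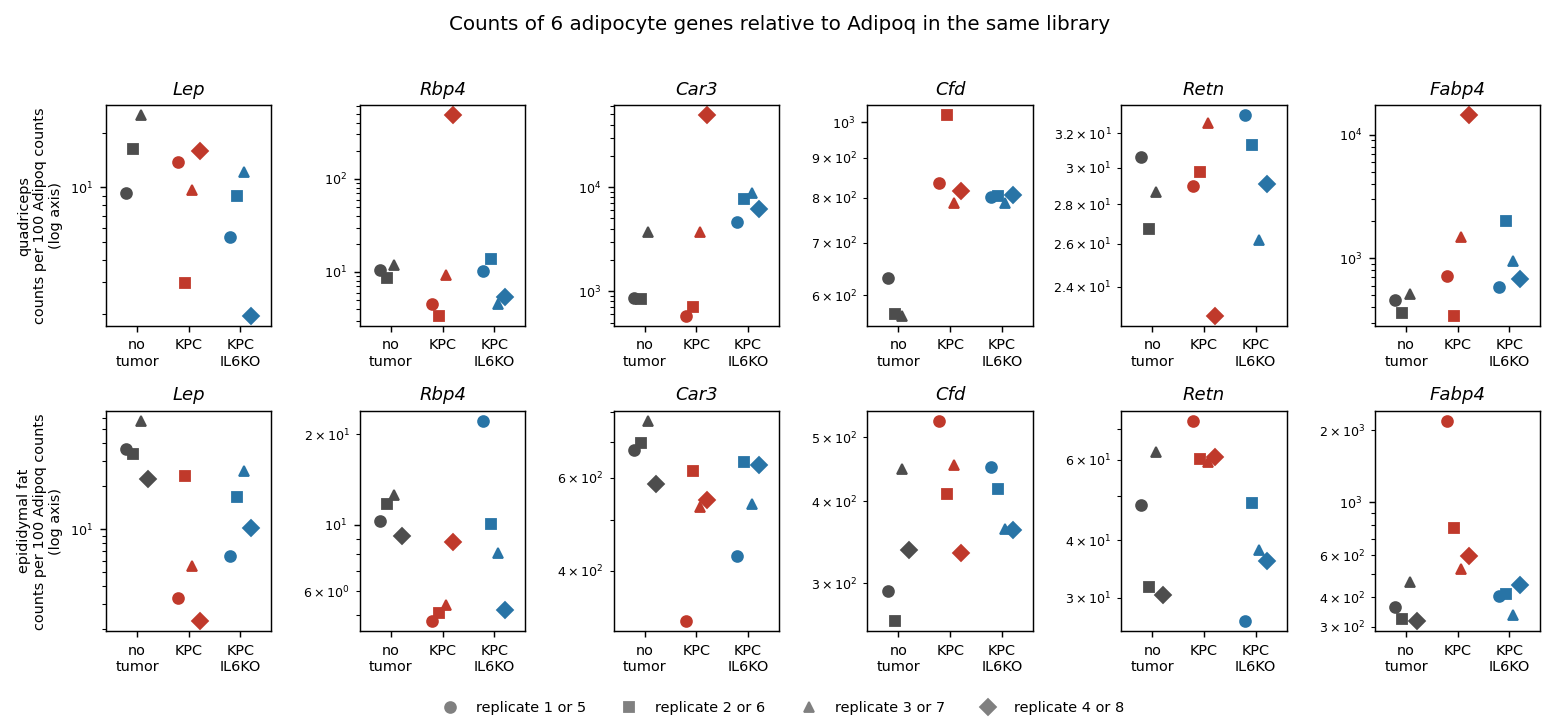
Counts of Lep, Rbp4, Car3, Cfd, Retn and Fabp4 per 100 Adipoq counts (log axes) in each quadriceps (top) and epididymal fat (bottom) library, with 1 point per mouse. In fat the KPC points of Rbp4 lie below and those of Fabp4 above all no tumor points, and in quadriceps all tumor-bearing points of Cfd lie above the no tumor points.

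In fat, Lep per 100 Adipoq counts was 36.4, 33.5, 57.0 and 22.6 without tumor, 3.29, 23.6, 5.51 and 2.26 in KPC, and 6.53, 16.8, 25.7 and 10.2 in KPC IL6KO. The KPC ratio differed from no tumor by −2.66 on the log2 scale (exact permutation p = 0.0571, adjusted 0.193), with replicate 6 alone inside the no tumor range, and the KPC IL6KO ratio by −1.44 (exact p = 0.0571, adjusted 0.193). Within pads high in Gpx5 the KPC difference was −3.03. Rbp4 per 100 Adipoq counts was 10.3, 11.7, 12.5 and 9.17 without tumor and 4.77, 5.09, 5.40 and 8.78 in KPC, a difference of −0.90 (log2) with no overlap, at the smallest p the design allows (exact p = 0.0286, adjusted 0.154). The Rbp4 difference was −0.42 with Plin1 as the denominator.

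Fabp4 moved the other way. It was 363, 324, 461 and 316 per 100 Adipoq counts without tumor, 2183, 778, 524 and 596 in KPC, and 403, 413, 338 and 449 in KPC IL6KO. KPC pads lay above all others, by 1.24 (log2) over no tumor and 1.10 over KPC IL6KO (exact permutation p = 0.0286 for each, adjusted 0.154). Without KPC replicate 5 these differences were 0.79 and 0.65. That pad also had the highest sum of the 5 endothelial markers, 696 CPM. The sums were 85.1 to 537 CPM without tumor, 211 to 696 CPM in KPC and 197 to 522 CPM in KPC IL6KO. The part of endothelium in the Fabp4 ratio was not tested. Retn was 72.9, 60.3, 59.4 and 61.0 in KPC against 26.6, 48.4, 38.0 and 36 in KPC IL6KO, and Agpat2 33.6, 19.0, 21.5 and 22.6 against 14.9, 17.6, 9.83 and 11.2, both without overlap, by 0.79 and 0.86 (log2) at the same p. Car3 was 678, 697, 768 and 585 without tumor and 320.5, 618, 527 and 544 in KPC, a difference of −0.48 (exact p = 0.0571, adjusted 0.193), and the difference was −0.27 without KPC replicate 5 and −0.0025 per Plin1.

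In quadriceps the ratio of Cfd to Adipoq varied least within each group. It was 631, 568 and 564 per 100 Adipoq counts without tumor, 837, 1020.2, 787 and 816 in KPC, and 801, 804, 788 and 806 in KPC IL6KO, although Adipoq itself ran from 0.828 to 197 CPM. All 8 tumor-bearing muscles lay above the 3 no tumor muscles, by 0.55 (KPC) and 0.45 (KPC IL6KO) on the log2 scale, each at the smallest p possible (exact p = 0.0571, adjusted 0.309). Retn stayed between 22.7 and 33.1 in all 11 muscles, and differed from no tumor by 0.06 (log2) in KPC IL6KO. Plin1 was 70.4, 82.9 and 68.2 without tumor, 41.4, 39.5, 31.6 and 52.3 in KPC and 52.0, 61.7, 52.5 and 48.9 in KPC IL6KO, and per Plin1 the Cfd differences were 1.40 in KPC and 0.90 in KPC IL6KO. Pparg (by 2.29 in KPC), Fabp4 (by 1.09 in KPC IL6KO) and Car3 (by 2.26 in KPC IL6KO) were also apart from no tumor at that p. Without KPC replicate 4 the Pparg difference was 1.21, without KPC IL6KO replicate 2 that of Fabp4 was 0.72, and leaving out single libraries moved that of Car3 between 1.90 and 2.96. In the muscle poorest in Adipoq, KPC replicate 4, the ratios of these 3 were 477, 14254 and 48914. Adipoq is the denominator of each ratio. In KPC IL6KO the fitted log2 difference from no tumor was −2.32 for Adipoq itself and 0.10 for Car3, which muscle fibers also hold. What fibers and other cells gave to these 3 ratios was not tested.

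The genes whose variation within groups was most like the mean of the 10, after group means were removed, were Cebpa (r = 0.981), Aoc3 (0.971), Tkt (0.969), Nat8l (0.964) and A530016L24Rik (0.959) over the 11 quadriceps libraries. In the 12 fat libraries they were Pla2g16 (0.993), Ebf2 (0.991), Cidec (0.991), Cat (0.989) and Amy1 (0.988). Against the mean of the other 9, the 10 genes themselves gave r from 0.467 (Car3) and 0.480 (Rbp4) to 0.940 (Fabp4) in quadriceps, and from 0.741 (Lep) to 0.983 (Adipoq and Cfd) in fat. These are descriptions over libraries that share tissue content, and carry no test.

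Finally, the KPC response was compared between tissues in 1 fit of the 12599 genes that both tables hold at sufficient counts. None of the 10 was called, although 36.9% of all genes were. Values ran from −1.31 ± 0.97 (Nrg4, edgeR FDR = 0.295) to 0.98 ± 0.88 (Pparg, FDR = 0.394) on the log2 scale, quadriceps minus fat. With SEs from 0.76 (Agpat2) to 1.57 (Lep), the lack of a call does not show equal responses. The fit took 1 spread per gene over both tissues, whose biological coefficients of variation were 22.7% in quadriceps and 63.5% in fat. The numbering of the mice, the extraction, the library preparation (per the paper) and the sequencing run differed between the tissues. None of these can be told apart from tissue in that fit.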

How the data were processed

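RNA-seq of quadriceps and epididymal fat was analysed from 2 deposited tables of raw read counts per gene. Per the labels and the submitters' processing notes, the authors checked reads with FastQC, aligned them with STAR to mm10, counted with featureCounts 1.5.1 (Subread) and tested with edgeR 3.12.1. The strand setting of the counting was not given in the sources used here, so overlapping and antisense genes may share counts. The authors left out 1 no tumor muscle, which was not analysed here. Each column was matched to its sample by name, and 0 columns were unused.

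The members and gene lists were chosen with earlier results of these data known. Genes of the other lists were named by a fixed rule: the gene of a list with the highest mean CPM over all libraries of the tissue and up to 3 called genes with the smallest p, or 1 not called where none was. One gene so named is not reported here. Counts were scaled by TMM and fitted per tissue over all 3 groups with edgeR 4.0.16 quasi-likelihood tests (legacy fit, R 4.3.3). filterByExpr removed 0 genes. Calls required both an FC of 1.5 or more and an FDR (Benjamini-Hochberg, over all genes of the table) no higher than 0.05. Ratios used log2 counts plus 0.5. Alternatives used DESeq2 1.42.0, limma 3.58.1 and other settings. The scripts were tested on simulated data. Libraries of a group differed by more than sampling noise, and p-values measure the spread between mice. Places and lengths came from GENCODE M21 (GRCm38, which is mm10) and promoters from RefSeq.

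Replicate numbers did not pair mice, since the same number in different groups named different animals. Deviations of same-numbered libraries correlated between −0.155 and 0.265 in quadriceps and between −0.539 and 0.650 in fat. Of these, 2 of 10 in quadriceps and 7 of 12 in fat were over 0.1. What same-numbered libraries may share was not tested.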

Additional observations from a re-analysis of the deposited data

Results flagged for a closer look

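In groups of 4 mice, 1 library stood apart from the other 3 (by the gap to its neighbour over the range of the group) in 7 of 50 gene and group combinations. The rule flags about 1 in 20 by chance only where values are normal and independent. These CPM are skewed and the combinations share libraries, so that rate does not apply to the 7 of 50. Groups of 3, the no tumor muscles, could not be examined. In quadriceps it was Rbp4 in KPC IL6KO replicate 1, at 3.62 CPM with the next highest at 0.995 CPM. In fat it was KPC replicate 5 for Pparg (64.8 CPM, next 28.4) and Nrg4 (41.4 CPM, next 15.1), which was also the KPC pad highest in Fabp4, and KPC replicate 6 for Lep (76.1 CPM, next 13.8). In KPC IL6KO fat, replicate 7 stood above the rest for Lep (423 CPM, next 82.4), Cfd (5975 CPM, next 2467) and Nrg4 (41.5 CPM, next 17.8), and it had the highest fat cell panel of its group, 4588 CPM. Why these libraries stood apart was not tested.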

How the results depend on the processing

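Spread between mice was wide, above all in fat, and p-values rest on 3 or 4 mice a group from 1 clone per tumor type. The part of depth was not tested. The 5 quadriceps calls of KPC against no tumor ranged from 1 to 6 when each library was left out, the lowest without no tumor replicate 2 and the highest, with Fabp4 added, without no tumor replicate 3. In the same comparison Cfd ranged from −2.01 to 0.12 and Pparg from −0.86 to 0.37. With at least 10 counts asked of every library, Lep left the quadriceps table.

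Other tools changed the counts of calls. In quadriceps KPC IL6KO against no tumor, 0 of the 10 genes became 3 by DESeq2 and 4 by the likelihood ratio test, and 0 of all genes became 96 and 95 (0 to 2 when libraries were left out). In KPC against KPC IL6KO, 1 of the 10 became 2 by DESeq2, by RLE factors and by the likelihood ratio test, and stayed at 1 to 2 without single libraries. In fat KPC against no tumor, 0 of the 10 became 3 by DESeq2 and 2 by the likelihood ratio test, and 0 of all genes became 585 by DESeq2, 413 by the likelihood ratio test, 16 by the newer quasi-likelihood fit, 174 with only the groups compared, 255 with the epididymis markers as a covariate, 627 with the Gpx5 class term, 393 in pads high in Gpx5, and 0 to 15 without single libraries. In fat KPC IL6KO against no tumor, 0 of all genes became 286 by DESeq2, 209 by the likelihood ratio test, 1 with the epididymis covariate and 0 to 13 without single libraries. In fat KPC against KPC IL6KO it became 125 by DESeq2, 66 by the likelihood ratio test and 1 by the newer fit. The causes were not tested. The tissue difference gave 0 to 1 of the 10 without single libraries, the 1 being Nrg4 (−2.28) without fat no tumor replicate 6.

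Signs turned under several settings. With a replicate block, KPC against KPC IL6KO in quadriceps gave −0.45 for Adipoq, −0.31 for Retn and −0.40 for Cfd, and KPC IL6KO against no tumor in fat gave 0.14 for Cfd and 0.19 for Fabp4. The block left the members called at 5, 0 and 1 in quadriceps and at 0 in fat, and the numbers pair no mice. With the epididymis covariate in fat, Fabp4 was at 0.0040 against no tumor and at 0.34 against KPC IL6KO, and Nrg4 at 0.20 against KPC IL6KO. With the Gpx5 term, chosen after seeing the data, KPC against no tumor gave 0.99 for Fabp4 and 0.27 for Nrg4, KPC IL6KO against no tumor gave 0.0040 for Cfd, and KPC against KPC IL6KO gave 0.13 for Retn, 1.20 for Fabp4, 0.44 for Pparg, 0.87 for Nrg4 and 0.28 for Agpat2. In pads high in Gpx5, also chosen after seeing the data, KPC against no tumor gave 0.053 for Adipoq, 0.37 for Retn, 0.49 for Cfd, 1.56 for Fabp4, 0.37 for Pparg, 0.85 for Nrg4 and 0.073 for Agpat2.

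Leaving out single libraries turned further signs. In quadriceps Car3 ranged from −0.22 to 0.41 for KPC IL6KO against no tumor, and for KPC against KPC IL6KO Adipoq ranged from −0.20 to 1.26, Lep from −0.083 to 1.40, Retn from −0.22 to 1.34 and Cfd from −0.15 to 1.51. In fat, KPC against no tumor ranged from −1.13 to 0.76 for Fabp4 and from −1.41 to 0.19 for Nrg4. KPC IL6KO against no tumor ranged from −1.10 to 0.63 for Adipoq, −0.95 to 0.62 for Retn, −0.62 to 0.82 for Cfd, −1.09 to 0.58 for Rbp4, −0.73 to 0.78 for Fabp4, −0.80 to 0.42 for Pparg, −1.30 to 0.47 for Car3, −1.12 to 0.34 for Nrg4 and −1.22 to 0.042 for Agpat2. KPC against KPC IL6KO ranged from −0.89 to 0.47 for Fabp4 and from −0.76 to 0.34 for Nrg4. In fat KPC against no tumor, Lep stayed between −5.20 and −2.54, Rbp4 between −3.33 and −1.71 and Car3 between −2.82 and −1.27.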

Other observations

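Brown and beige fat markers were low in the fat pads. The 5 of them summed to between 1.53 and 20.6 CPM in 11 of the 12 pads and to 48.8 CPM in KPC IL6KO replicate 8, where Ucp1, the uncoupling protein of brown fat, stood at 33.2 CPM. That pad was also the one with 3016 CPM of skeletal muscle markers. In quadriceps 3 markers of this list were measured and Cox7a1, a respiratory chain subunit that muscle also uses, was called lower in KPC than in no tumor muscle. The 6 mesothelial markers summed to 212 to 416 CPM in no tumor fat, 347 to 728 CPM in KPC and 234 to 1386 CPM in KPC IL6KO, with none called. In quadriceps, Cd68 was called higher in KPC than in no tumor muscle, and Adgre1 and Mrc1, both macrophage surface markers, lower.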
